A study of Mus musculus with 12 samples.

Results

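The 8 genes described here are the plasma cell regulators and secretory genes Prdm1, Xbp1, Irf4, Sdc1, Mzb1, Tnfrsf17, Derl3 and Zbtb32. They were chosen by symbol, and each had 1 row among the 19376 genes of the expression table, and all 8 were among the 15079 genes that passed the filter on low counts. The table holds total RNA sequencing of mouse spleen, in 12 libraries of 4 groups. The first group of 3 libraries received the alkylating drug busulfan once at 40 mg/kg and then alginate oligosaccharides (AOS, short sugar chains made from the seaweed polymer alginate) at 10 mg/kg for 5 weeks. The second group of 3 received the same single dose of busulfan without AOS, the third group of 3 received AOS at 10 mg/kg for 5 weeks without busulfan, and the fourth group of 3 was an untreated control. The labels name the animals as IRC mouse in every group and give no genotype, age or vehicle. One letter of the code given to the busulfan samples is not in the study's design text, and these samples were taken as given no AOS. The labels leave unsaid whether each library stands for its own animal, so a p-value here compares a difference only with the scatter among libraries, part of which may be technical.

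Plasma cells are the antibody-secreting end stage of the B lymphocyte, and the spleen both forms and houses them. Prdm1 encodes Blimp-1, a transcriptional repressor that shuts down the B cell programme, and Irf4 is a dose-dependent factor that acts before and with it. Xbp1 is activated by unconventional splicing under the unfolded protein response and drives genes that enlarge the endoplasmic reticulum (ER), where antibodies are folded. Mzb1 is an ER co-chaperone of antibody assembly, Derl3 is an ER membrane protein of the degradation pathway for misfolded proteins, Sdc1 is the surface proteoglycan CD138 used to recognise plasma cells, and Tnfrsf17 is BCMA, a receptor for survival signals. Zbtb32 is a zinc finger repressor known in mice to limit the duration of secondary antibody responses.

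In the GRCm38 annotation all 8 genes are protein coding. Prdm1 spans chr10:44437177-44528501 on the minus strand and Derl3 spans chr10:75893413-75895941 on the plus strand. Zbtb32 spans chr7:30589681-30598909 (minus), Xbp1 chr11:5520659-5525893 (plus), Irf4 chr13:30749226-30766976 (plus), Sdc1 chr12:8771323-8793715 (plus) and Tnfrsf17 chr16:11313812-11320074 (plus). These 7 genes overlap no other annotated gene.

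The 250 bases before the RefSeq start (GRCm38.p6) are shown for Derl3, Prdm1 and Zbtb32, because these were the members that passed the test in at least 1 comparison. They are written on the strand of the gene. Derl3 is from chr10:75893148-75893397 (plus), Prdm1 from chr10:44458749-44458998 (minus), inside the annotated span of the gene, and Zbtb32 from chr7:30598910-30599159 (minus, the first of 2 windows listed for it). Capitals mark CCACG or its reverse complement, the core of the ER stress element that the proteins ATF6 and XBP1 can bind. In Derl3 they also mark the CCAAT part of a whole element.
Derl3: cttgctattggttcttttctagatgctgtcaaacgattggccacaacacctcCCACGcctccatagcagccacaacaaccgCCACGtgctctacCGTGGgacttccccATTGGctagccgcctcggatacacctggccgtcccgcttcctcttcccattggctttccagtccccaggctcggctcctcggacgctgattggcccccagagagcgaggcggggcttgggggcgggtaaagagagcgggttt
Prdm1: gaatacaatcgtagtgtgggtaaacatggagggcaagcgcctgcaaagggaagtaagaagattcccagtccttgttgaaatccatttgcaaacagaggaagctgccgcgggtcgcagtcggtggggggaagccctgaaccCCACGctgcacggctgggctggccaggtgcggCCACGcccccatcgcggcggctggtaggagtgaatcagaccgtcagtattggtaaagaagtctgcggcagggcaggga
Zbtb32: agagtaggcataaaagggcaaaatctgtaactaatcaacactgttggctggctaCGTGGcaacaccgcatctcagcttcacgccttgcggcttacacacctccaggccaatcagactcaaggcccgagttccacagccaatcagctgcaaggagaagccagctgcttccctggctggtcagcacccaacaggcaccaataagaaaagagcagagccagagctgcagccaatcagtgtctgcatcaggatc
The Derl3 window held the whole ER stress element (CCAAT, 9 further bases, CCACG) on the reverse strand, 156 to 138 bases before the start, and this match overlaps 1 of its 3 cores. Of 32851 RefSeq windows of 300 bases (250 before to 50 after a start), 0.119% held the whole element on either strand. A window was listed for 7 of the 8 members (all but Mzb1), and the whole element was found in 1 of these 7. The core CCACG was found in 5 of the 7 (Derl3, Irf4, Prdm1, Sdc1 and Zbtb32), against 32.8% of all windows. Other letters were searched on both strands as well. TGACGTG, an element of the unfolded protein response, was in 0 of 7 (2.01% of all windows), and AGNGAAAG, the core of a PRDM1 site, in 0 of 7 (8.63%). GAAA, 2 bases and GAAA, a site of interferon regulatory factors, was in 1 of 7, Tnfrsf17 (3.44% of all windows), and GGAA, 2 bases and GAAA, a composite site of ETS factors and these, was in 0 of 7 (2.72%). The whole element was searched after the windows had been seen, and a match of letters describes the window only.

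The 12 libraries held 15051297 to 16241883 counts each. Markers of pancreatic acinar cells, which lie next to the spleen, differed between libraries. In CPM, counts scaled to a common library size, their 24 genes summed to 113 to 1562 with busulfan plus AOS, 24.4 to 645 with busulfan, 1884 to 26060 with AOS and 16.8 to 139 in control, where up to 9 of the 24 were at 0. A list of 12 heat shock genes summed to 2612 to 2883 CPM with busulfan plus AOS, 5530 to 10744 with busulfan, 5167 to 7524 with AOS and 4299 to 7364 in control. The busulfan-plus-AOS libraries thus lay below all others for the heat shock list. B cell markers were present throughout, since the 18 genes of that list were above 0 in every library.

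Levels between the 8 genes can be compared per transcript length, as FPKM (fragments scaled by gene length and library size). Over the 12 libraries the median was highest for Mzb1, at 151.09 FPKM (range 132.6 to 178.17), followed by Xbp1 at 51.3 (40.91 to 59.29) and Irf4 at 17.1 (13.1 to 19.02). The ranges of these 3 genes overlapped neither each other nor those of the other 5. Derl3 had a median of 7.35 FPKM (5.87 to 11.18), Sdc1 3.90 (2.84 to 5.35), Zbtb32 2.94 (2.34 to 6.46), Prdm1 2.01 (1.67 to 3.53) and Tnfrsf17 1.67 (0.49 to 3.83). Derl3 lay above each of these 4 genes in 12 of 12 libraries, and Sdc1 and Zbtb32 each lay above Prdm1 in 12 of 12. Sdc1 lay above Zbtb32 in 7 of 12, and Tnfrsf17 lay below Prdm1 in 9 of 12 and below Zbtb32 in 11 of 12, so these libraries do not resolve the order of Sdc1 and Zbtb32 or the place of Tnfrsf17. Tnfrsf17 rested on 5 to 42 counts per library, and its biological coefficient of variation was 43.9%, against 8.40% for Irf4, 9.38% for Mzb1 and 10.2% for Prdm1. The summed level of the 8 genes was 367 to 412 CPM with busulfan plus AOS, 335 to 375 with busulfan, 335 to 356 with AOS and 302 to 351 in control.

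**Figure D1:**
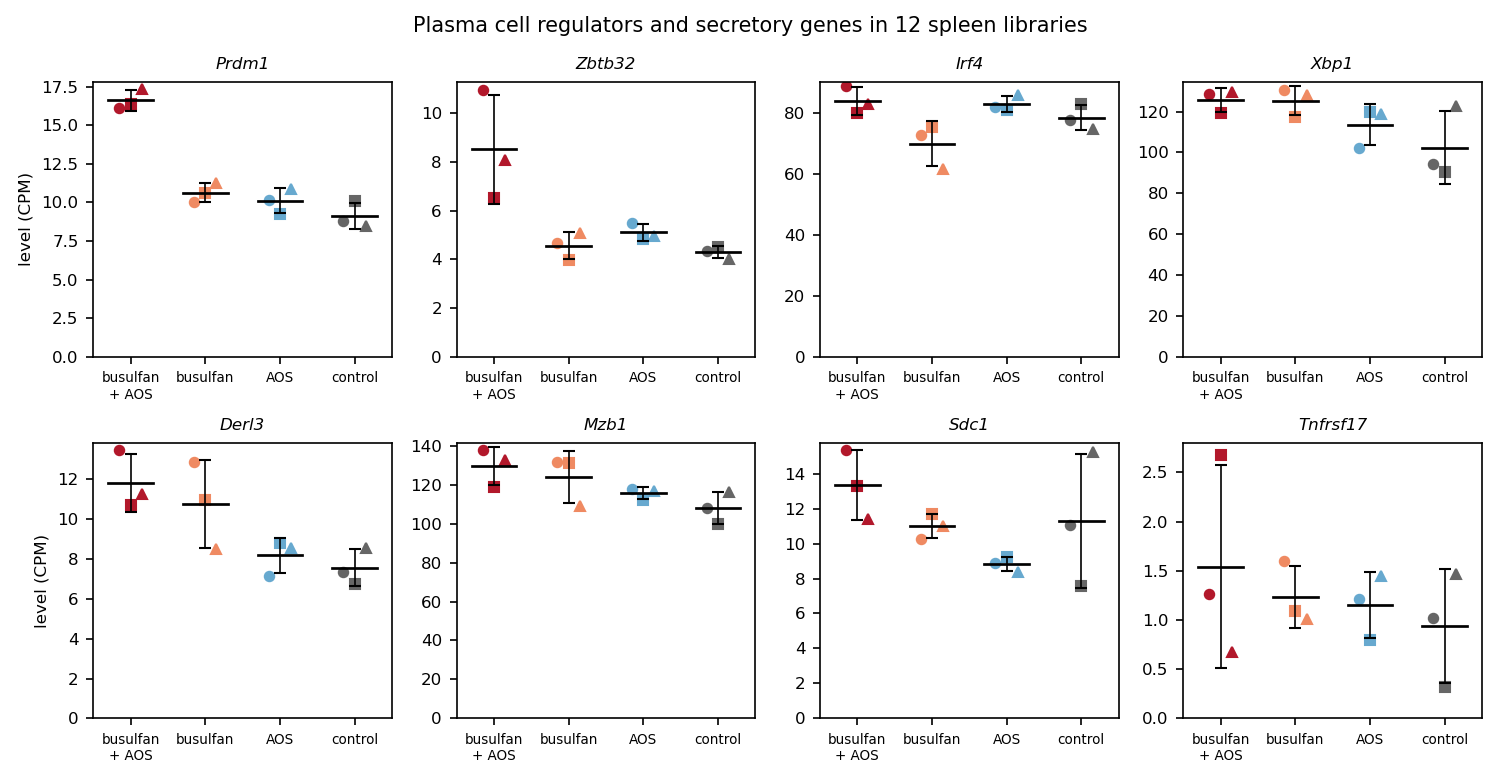
CPM of each of the 8 genes (y axis, one panel per gene) in every library, with the groups along the x axis, points for libraries and bars for the mean and SD of 3. For Prdm1 the 3 busulfan-plus-AOS libraries sit at 16.1 to 17.4 CPM, above the other 9 libraries, and Tnfrsf17 shows the widest scatter for its level.

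Prdm1 was the member that stood out. It had 16.1, 16.4 and 17.4 CPM in the busulfan-plus-AOS libraries, against 10.0, 10.6 and 11.3 CPM in the busulfan libraries, 10.2, 9.27 and 10.9 CPM in the AOS libraries and 8.81, 10.1 and 8.51 CPM in the control libraries. All 3 busulfan-plus-AOS libraries lay above the other 9, while the other groups overlapped one another. The means were 16.6 ± 0.673 CPM with busulfan plus AOS, 10.6 ± 0.622 with busulfan, 10.1 ± 0.816 with AOS and 9.13 ± 0.828 in control (SD, n = 3 each). In bulk tissue, more cells of a type cannot be told apart from more RNA per cell, here and in every result that follows, and the same holds for fewer cells and less RNA. Prdm1 rose 1.82-fold with busulfan plus AOS relative to control (95% interval 1.55 to 2.14, edgeR quasi-likelihood test, adjusted p = 0.0151), and only 2 of the 15079 genes had a smaller p in that comparison. It rose 1.64-fold relative to AOS (1.40 to 1.93, edgeR adjusted p = 0.0122) and 1.56-fold relative to busulfan (1.34 to 1.83, edgeR adjusted p = 0.0144). Busulfan alone gave a log2 difference of 0.22 ± 0.10 (SE) from control and AOS alone 0.15 ± 0.11, and neither passed the test (edgeR adjusted p = 0.266 and 0.885). The extra effect of the combination, tested as an interaction, was 0.50 ± 0.15 on the log2 scale, with an unadjusted p of 0.00624 and an edgeR adjusted p of 0.132, so it did not pass either. Averaged over AOS, busulfan raised Prdm1 1.38-fold (1.24 to 1.55, edgeR adjusted p = 0.0159).

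The direction of the Prdm1 differences held in all 12 fits that left out 1 library, and the averaged busulfan call stood in all 12 (edgeR adjusted p = 0.0157 to 0.0475). That averaged call was lost without control library 1 and AOS library 2 together (edgeR adjusted p = 0.0635). It was also lost with the heat shock list as a covariate (0.0622). The pairwise calls were close to the threshold. The call against AOS was lost without busulfan-plus-AOS library 2 (edgeR adjusted p = 0.0582). The call against busulfan was lost without busulfan library 1 (edgeR adjusted p = 0.0642) or without busulfan-plus-AOS library 1, 2 or 3 (0.0551, 0.0529 and 0.058). The call against control was lost without control library 1 (edgeR adjusted p = 0.0512) or without busulfan-plus-AOS library 1, 2 or 3 (0.0573, 0.0504 and 0.0526). Prdm1 is also expressed by T cells, natural killer cells and macrophages. With the heat shock list as a covariate its log2 difference was 0.65 relative to control, 0.51 relative to AOS and 0.39 relative to busulfan, and none of these passed the test (edgeR adjusted p = 0.440, 0.297 and 0.884). Over the whole table this covariate left 0 genes called relative to AOS, 0 relative to busulfan and 1 relative to control. Without it edgeR called 876, 456 and 132. As the busulfan-plus-AOS libraries lay below all others for that list, the covariate and the group cannot be told apart. With the acinar markers as a covariate the log2 difference of Prdm1 relative to AOS was 0.66 (edgeR adjusted p = 0.144), and the calls relative to control and to busulfan stood. Relative to AOS the acinar covariate also left 0 genes called over the whole table.

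Zbtb32 was also highest with busulfan plus AOS. It had 10.95, 6.51 and 8.08 CPM in the busulfan-plus-AOS libraries, against 4.66, 3.98 and 5.06 CPM in the busulfan libraries, 5.51, 4.83 and 4.98 CPM in the AOS libraries and 4.34, 4.52 and 4.03 CPM in the control libraries. The 3 busulfan-plus-AOS libraries were again the highest of the 12, and library 1 stood well above the other two. Their mean was 8.51 ± 2.25 CPM, against 4.57 ± 0.550 with busulfan, 5.11 ± 0.355 with AOS and 4.30 ± 0.250 in control (SD, n = 3 each). Zbtb32 rose 1.98-fold relative to control (1.48 to 2.64, edgeR adjusted p = 0.0381), 1.67-fold relative to AOS (1.25 to 2.22, edgeR adjusted p = 0.0464) and 1.86-fold relative to busulfan (1.40 to 2.48, edgeR adjusted p = 0.0335). The interaction was 0.65 ± 0.27 on the log2 scale (unadjusted p = 0.0342, edgeR adjusted p = 0.255). These calls rested on 62 to 164 counts per library. Leaving out 1 library at a time, the call relative to control stood in 1 of 12 fits (without busulfan library 3), that relative to AOS in 1 of 12 (without control library 3) and that relative to busulfan in 7 of 12. Without busulfan-plus-AOS library 1 the log2 difference was 0.76 relative to control, 0.51 relative to AOS and 0.67 relative to busulfan (edgeR adjusted p = 0.110, 0.120 and 0.0986).

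Irf4, the third regulator, varied little. It had 88.9, 79.9 and 82.8 CPM in the busulfan-plus-AOS libraries, against 72.8, 75.4 and 61.7 CPM in the busulfan libraries, 81.8, 80.9 and 85.8 CPM in the AOS libraries and 77.8, 82.8 and 74.6 CPM in the control libraries. The busulfan libraries held the lowest value, and they did not overlap the busulfan-plus-AOS libraries. The log2 difference between busulfan plus AOS and busulfan was 0.26 ± 0.08, which did not pass (edgeR adjusted p = 0.0963). Relative to control, Irf4 differed by 0.10 ± 0.08 with busulfan plus AOS (95% interval -0.08 to 0.27) and by -0.16 ± 0.08 with busulfan.

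Among the secretory genes, Derl3 followed busulfan with or without AOS. It had 13.5, 10.7 and 11.3 CPM in the busulfan-plus-AOS libraries, against 12.9, 10.97 and 8.48 CPM in the busulfan libraries, 7.17, 8.80 and 8.57 CPM in the AOS libraries and 7.34, 6.75 and 8.57 CPM in the control libraries. Of the 6 libraries that received busulfan, 5 lay above all 6 that did not, and busulfan library 3 fell within the range of the untreated and AOS libraries. Averaged over AOS, busulfan raised Derl3 1.44-fold (95% interval 1.195 to 1.73, edgeR adjusted p = 0.0310). In the separate comparisons the log2 difference was 0.53 ± 0.17 for busulfan plus AOS against AOS (edgeR adjusted p = 0.0849) and 0.51 ± 0.17 for busulfan against control (edgeR adjusted p = 0.138). Relative to control, busulfan plus AOS gave 0.65 ± 0.17 (edgeR adjusted p = 0.0934). The averaged call was lost in 8 of 12 fits without 1 library. It was lost without control library 1 or 2, AOS library 1 or 3, busulfan library 1, or busulfan-plus-AOS library 1, 2 or 3, with edgeR adjusted p-values of 0.0508 to 0.0803. AOS library 2, which had the acinar sum of 26060 CPM, had 8.80 CPM of Derl3, the highest of the AOS libraries by a small margin.

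Xbp1 had 128.6, 119.1 and 129.5 CPM in the busulfan-plus-AOS libraries, against 130.5, 117.2 and 127.9 CPM in the busulfan libraries, 102.0, 120.0 and 118.8 CPM in the AOS libraries and 94.1, 90.3 and 122.7 CPM in the control libraries. Control library 3 fell within the range of the treated libraries, and control libraries 1 and 2 were the lowest of the 12. Relative to control, the log2 difference was 0.30 ± 0.11 with busulfan plus AOS and 0.29 ± 0.11 with busulfan, and neither passed (edgeR adjusted p = 0.203 and 0.184). Averaged over AOS, the busulfan difference of 0.22 ± 0.08 had an edgeR adjusted p of 0.0965, which became 0.30 with an edgeR adjusted p of 0.0190 without control library 3. These are totals over the gene, and the spliced form of the Xbp1 transcript is not separated from the unspliced one in a table of gene counts.

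Mzb1 (chr18:35647267-35649367, minus strand) overlaps a second gene on the same strand, and reads of the overlap cannot be assigned with certainty. It had 137.8, 118.8 and 132.6 CPM in the busulfan-plus-AOS libraries, against 131.9, 131.4 and 108.9 CPM in the busulfan libraries, 118.0, 112.2 and 117.1 CPM in the AOS libraries and 108.0, 99.9 and 116.1 CPM in the control libraries. The busulfan-plus-AOS libraries lay above all AOS and control libraries, and the busulfan libraries overlapped them. The log2 difference was 0.26 ± 0.09 for busulfan plus AOS against control (edgeR adjusted p = 0.159) and 0.18 ± 0.06 for busulfan averaged over AOS (edgeR adjusted p = 0.0856). The averaged difference was 0.22 and passed without control library 3 (edgeR adjusted p = 0.04997).

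At the cell surface, Sdc1 had 15.4, 13.3 and 11.4 CPM in the busulfan-plus-AOS libraries, against 10.3, 11.7 and 11.01 CPM in the busulfan libraries, 8.90, 9.20 and 8.38 CPM in the AOS libraries and 11.04, 7.58 and 15.2 CPM in the control libraries. The control libraries spanned nearly the whole range of the 12. Sdc1 in busulfan plus AOS lay above the AOS libraries without overlap, by 0.60 ± 0.21 on the log2 scale, and this did not pass (edgeR adjusted p = 0.108). Averaged over AOS, its busulfan difference was 0.28 ± 0.15 (edgeR adjusted p = 0.233), and 0.43 without control library 3 (edgeR adjusted p = 0.0414). Tnfrsf17 had 1.27, 2.68 and 0.678 CPM in the busulfan-plus-AOS libraries, against 1.60, 1.09 and 1.01 CPM in the busulfan libraries, 1.22, 0.794 and 1.45 CPM in the AOS libraries and 1.02, 0.319 and 1.47 CPM in the control libraries. All 4 groups overlapped. For busulfan plus AOS against control the fold was 1.64 with a 95% interval of 0.692 to 3.88, so a change of either direction was not resolved at this depth.

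**Figure D2:**
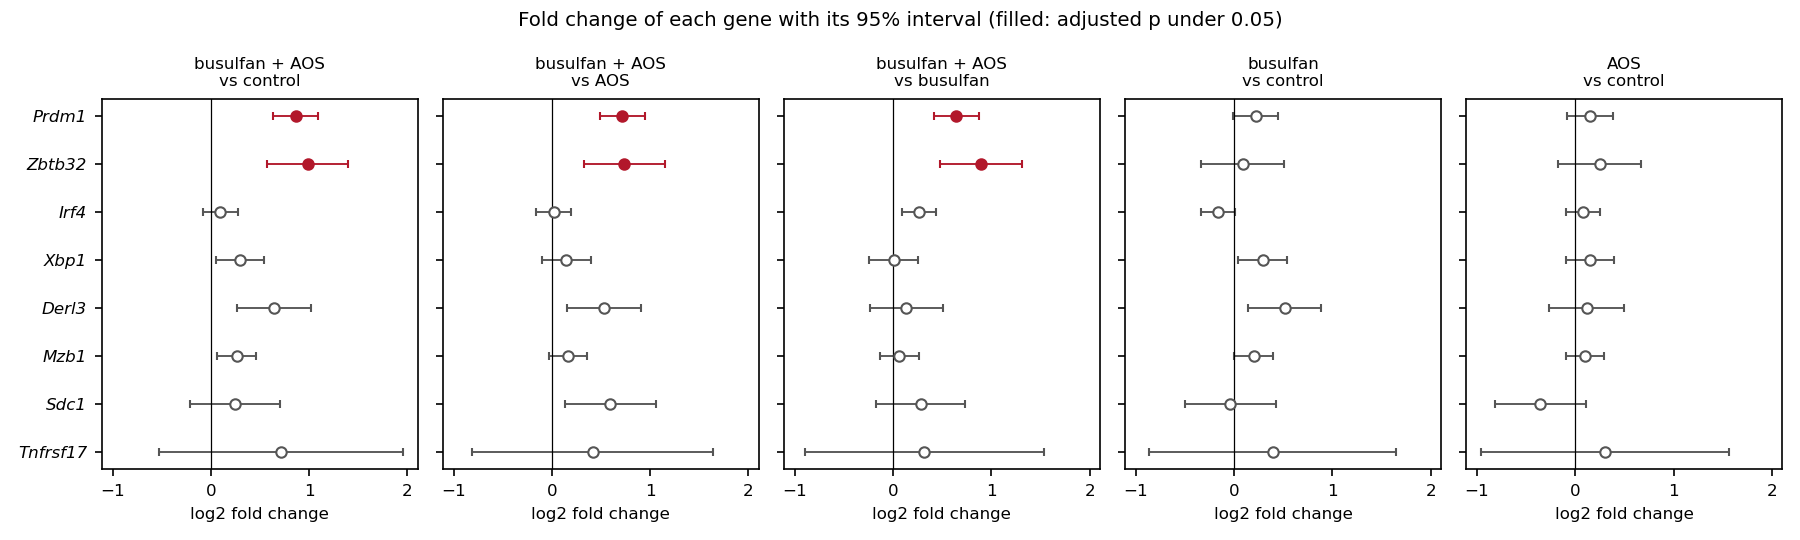
log2 fold change (x axis) of the 8 genes in each comparison, with 95% intervals, filled points for genes that passed the edgeR test at an adjusted p under 0.05 and open points for the rest. Prdm1 and Zbtb32 are filled in the comparisons of busulfan plus AOS with each other group.

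Counted over the list, busulfan plus AOS against control had 2 of 8 members called higher (Prdm1 and Zbtb32) at an adjusted p under 0.05, where 0.259% of all genes tested were called higher. None of the 8 was called lower, and the same pair was called in the next comparisons. Relative to AOS, 2 of 8 were called higher, where 2.36% of all genes were. Of all edgeR calls in that comparison 40.6% were higher, against 61.9% of those by limma on log2(FPKM + 1), whose scaling differs. Relative to busulfan, 2 of 8 were called higher, where 1.53% of all genes were. Averaged over AOS, busulfan had 2 of 8 called higher (Prdm1 and Derl3), where 3.10% of all genes were. These comparisons share groups, so their counts are not independent of each other. Busulfan against control had 0 of 8 called by edgeR, where 0.133% of all genes were called higher, and DESeq2 and limma also called 0. At an unadjusted p under 0.05 it had 3 of 8 higher (Xbp1, Mzb1 and Derl3), against 9.10% of all genes. AOS against control had 0 of 8 called by edgeR, DESeq2 and limma and 0 at an unadjusted p under 0.05, where edgeR called 0% of all genes higher. The interaction had 0 of 8 called by edgeR, DESeq2 and limma, where edgeR called 0.239% of all genes higher. At an unadjusted p under 0.05 it had 2 of 8 higher (Prdm1 and Zbtb32), against 8.12% of all genes.

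The 3 libraries of busulfan plus AOS lay wholly above those of AOS for 5 of 8 members (Prdm1, Sdc1, Mzb1, Derl3 and Zbtb32), where this held for 14.6% of all genes. They lay wholly above control for 4 of 8 (Prdm1, Mzb1, Derl3 and Zbtb32), where this held for 10.8% of all genes, and above busulfan for 3 of 8 (Prdm1, Irf4 and Zbtb32), against 14.3% of all genes. AOS lay wholly above control for 1 of 8 (Zbtb32), against 5.63% of all genes, and busulfan lay wholly above control for 0 of 8, against 11.0% of all genes. The median log2 difference of the 8 was 0.47 for busulfan plus AOS against control, 0.47 against AOS and 0.27 against busulfan. The medians over all genes tested were -0.00070, 0.00033 and 0.0041 in the same comparisons. Busulfan-plus-AOS library 1 was the highest of the 12 for 5 of the 8 genes, and control library 2 was the lowest for 5 of the 8.

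Of 15 other plasma cell genes, 11 had a log2 difference above 0 in busulfan plus AOS relative to control, with a median of 0.27, and 12 relative to AOS, with a median of 0.21. Relative to busulfan 8 of the 15 were above 0, with a median of 0.01. The joining chain gene Jchain averaged 914 ± 50.2 CPM with busulfan plus AOS, 905 ± 77.3 with busulfan, 537 ± 39.8 with AOS and 660 ± 291 in control (SD, n = 3 each). The control libraries of Jchain were as scattered as those of Sdc1. Averaged over AOS, busulfan had 3 of the 15 called higher, Jchain by 0.61 ± 0.17 (edgeR adjusted p = 0.0475), the transcription elongation cofactor Eaf2 by 0.62 ± 0.15 (0.0347) and Trp53inp1 by 0.20 ± 0.05 (0.0382), all on the log2 scale, where 3.10% of all genes were called higher. Cxcr4, the chemokine receptor that holds plasma cells in bone marrow, was called lower, at -0.46 ± 0.09 (edgeR adjusted p = 0.0233), as were 5.13% of all genes. That average joins unlike busulfan effects, since the interaction was -1.59 on the log2 scale (edgeR adjusted p = 0.0114). Without AOS, the busulfan mean of Cxcr4 lay above control. Cxcr4 averaged 83.5 ± 5.23 CPM with busulfan plus AOS, 188 ± 26.2 with busulfan, 200 ± 18.5 with AOS and 149 ± 24.1 in control, and the 3 busulfan-plus-AOS libraries lay below all others. It fell by 1.17 ± 0.13 on the log2 scale with busulfan plus AOS relative to busulfan (edgeR adjusted p = 0.00525), and many other leukocytes express it too. Relative to busulfan, the surface receptor Slamf7 rose by 0.89 ± 0.12 (edgeR adjusted p = 0.00865) and the ER disulfide isomerase Txndc5 by 0.42 ± 0.09 (0.0350), so 2 of 15 were higher and 1 lower, where 1.53% of all genes were called higher and 3.02% in either direction. Relative to AOS, Trp53inp1 rose by 0.36 ± 0.07 (edgeR adjusted p = 0.0222) and Cxcr4 fell by 1.26 ± 0.13 (0.00528), and relative to control Cxcr4 alone passed and fell by 0.83 ± 0.13 (0.0243), where 3.45% and 0.617% of all genes were called lower. Leaving out 1 library at a time, the calls of Cxcr4 relative to busulfan and to AOS and of Slamf7 stood in 12 of 12 fits, against 6 of 12 for Cxcr4 relative to control, 9 of 12 for averaged Cxcr4, 6 of 12 for Txndc5, 7 of 12 for Trp53inp1 relative to AOS and 2 of 12 for it averaged, 3 of 12 for Eaf2 and 1 of 12 for Jchain. With the heat shock list as a covariate Cxcr4 differed by -0.53 relative to busulfan, -0.75 relative to AOS and -0.28 relative to control, and none of these passed (edgeR adjusted p = 0.641, 0.103 and 0.497). Over the whole table this covariate left 0, 0 and 1 genes called in the same comparisons.

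**Figure D3:**
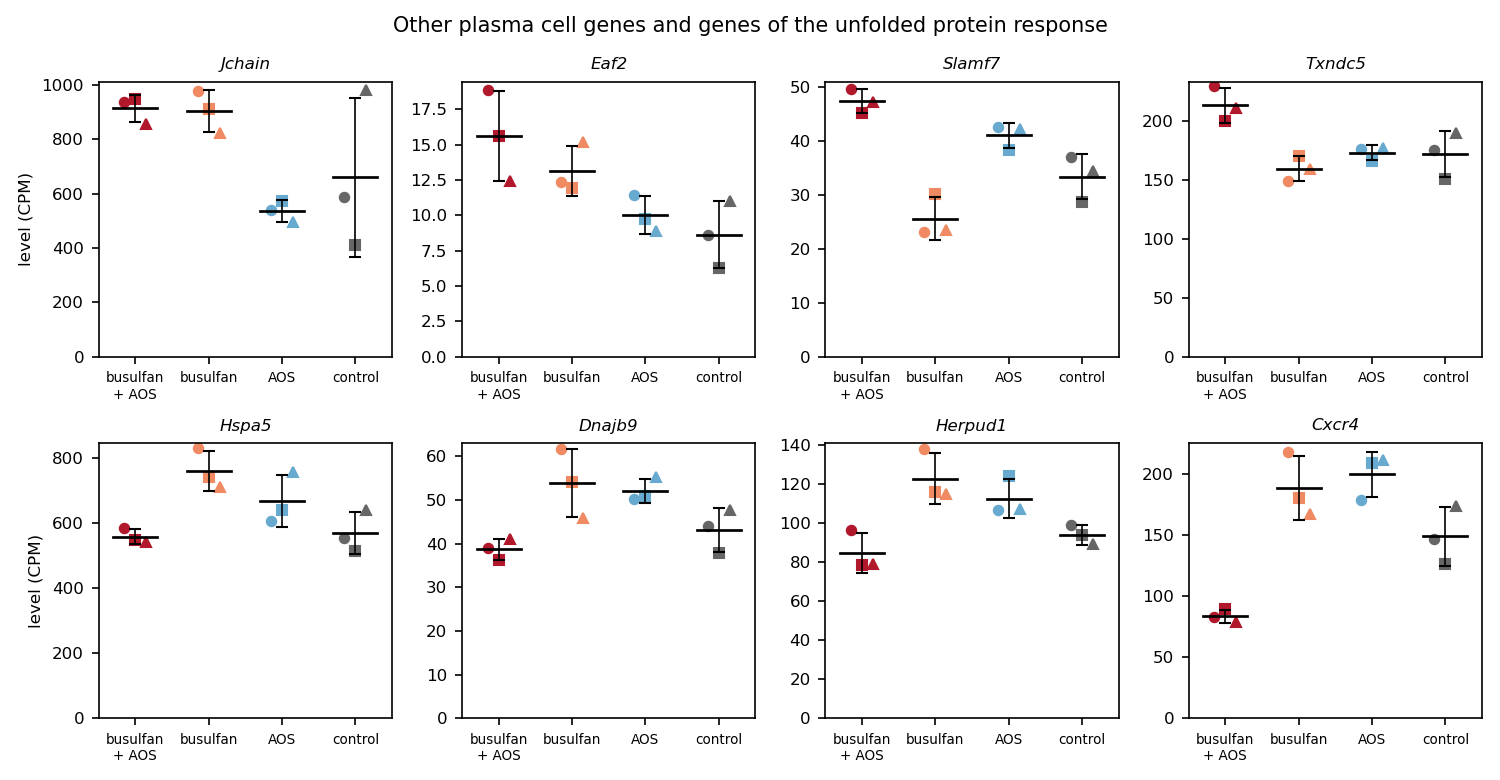
CPM (y axis) of 8 further genes, 1 per panel, in every library, with the groups along the x axis, points for libraries and bars for the mean and SD of 3. Cxcr4 is lowest in the busulfan-plus-AOS libraries, at 83.5 CPM on average, and Jchain scatters widely in the control libraries.

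Targets of Xbp1 and of the unfolded protein response did not follow Prdm1. The ER chaperone Hspa5 (BiP) averaged 559 ± 23.9 CPM with busulfan plus AOS, 762 ± 62.2 with busulfan, 669 ± 78.6 with AOS and 570 ± 64.3 in control (SD, n = 3 each). The ER co-chaperone Dnajb9 averaged 38.7 ± 2.40 CPM with busulfan plus AOS, 53.9 ± 7.84 with busulfan, 52.1 ± 2.75 with AOS and 43.1 ± 5.01 in control. Herpud1, of the ER degradation pathway, averaged 84.7 ± 10.3 CPM with busulfan plus AOS, 123 ± 13.0 with busulfan, 113 ± 9.89 with AOS and 93.9 ± 4.90 in control. For all 3 genes the busulfan-plus-AOS libraries lay wholly below the busulfan libraries. In the other direction, wholly above, this held for 14.3% of all genes, and the share wholly below is not given here. The 3 genes are also those called lower in the same comparison, so the lack of overlap is no separate result. Of the 32 genes of this list, these 3 were called lower and 0 higher in busulfan plus AOS relative to busulfan, at -0.45 ± 0.11 for Hspa5 (edgeR adjusted p = 0.0493), -0.48 ± 0.11 for Dnajb9 (0.0488) and -0.54 ± 0.10 for Herpud1 (0.0263), where 3.02% of all genes were called in either direction. The median of the 32 was -0.21. For busulfan plus AOS against control the list was not lower, with 20 of 32 above 0 (49.8% of all genes) and a median of 0.09. There 0 of 32 were called, where 0.259% of all genes were called higher and 0.617% lower. Relative to AOS, 2 of 32 were called lower, Herpud1 by 0.41 ± 0.10 and Atf6b by 0.24 ± 0.06 (edgeR adjusted p = 0.0457 and 0.0416), where 3.45% of all genes were called lower. Busulfan against control had 0 of 32 called by edgeR and by limma, with 16 higher (9.10% of all genes) and 0 lower at an unadjusted p under 0.05 and 11 called higher by DESeq2 (2.53% of all genes with an adjusted p). With single libraries left out, the calls relative to busulfan stood in 9 of 12 fits for Herpud1, 3 of 12 for Dnajb9 and 2 of 12 for Hspa5, and those relative to AOS in 3 of 12 for Herpud1 and 1 of 12 for Atf6b. The heat shock list was lower in the busulfan-plus-AOS libraries as well, and with it as a covariate the difference relative to busulfan was -0.01 for Hspa5, 0.06 for Dnajb9 and -0.36 for Herpud1 (edgeR adjusted p = 0.997, 0.956 and 0.884). Relative to busulfan this covariate left 0 genes called over the whole table, against 456 without it.

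Of 45 genes for entry into and export from the ER, 4 were called higher by busulfan averaged over AOS, namely Sec13 (0.18 ± 0.04), Srp19 (0.18 ± 0.04), Spcs1 (0.20 ± 0.05) and Spcs2 (0.14 ± 0.04), with edgeR adjusted p-values of 0.0260, 0.0310, 0.0375 and 0.0382, where 3.10% of all genes were called higher. Sec13 is a coat protein of vesicles leaving the ER, Srp19 belongs to the signal recognition particle, and Spcs1 and Spcs2 are subunits of signal peptidase. When each library was left out in turn, these calls stood in 5, 4, 1 and 2 of 12 fits in the same order. The paralogs of Derl3 gave other values. Derl1 averaged 126.2 ± 1.94 CPM with busulfan plus AOS, 126.2 ± 4.31 with busulfan, 112 ± 6.51 with AOS and 116 ± 7.13 in control, a busulfan difference of 0.14 ± 0.05 averaged over AOS (edgeR adjusted p = 0.0676). Derl2 averaged 3.90 ± 2.48 CPM with busulfan plus AOS, 7.24 ± 3.09 with busulfan, 9.25 ± 4.17 with AOS and 8.37 ± 3.01 in control, and its averaged difference was -0.73 ± 0.34 (edgeR adjusted p = 0.183).

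Among genes that Prdm1 represses or that repress it, Pax5 and Bach2 were lower after busulfan. The B cell identity factor Pax5 averaged 203 ± 8.21 CPM with busulfan plus AOS, 163 ± 28.3 with busulfan, 254 ± 33.1 with AOS and 222 ± 14.6 in control (SD, n = 3 each). The repressor Bach2 averaged 71.8 ± 10.6 CPM with busulfan plus AOS, 57.8 ± 12.6 with busulfan, 85.6 ± 7.59 with AOS and 87.0 ± 6.10 in control. The 6 libraries given busulfan had lower group means of both genes than the 6 without it. Averaged over AOS, Pax5 fell by 0.38 ± 0.09 and Bach2 by 0.42 ± 0.10 on the log2 scale (edgeR adjusted p = 0.0294 and 0.0375). The germinal centre repressor Bcl6 averaged 46.9 ± 6.65 CPM with busulfan plus AOS, 44.1 ± 6.58 with busulfan, 58.6 ± 0.229 with AOS and 47.6 ± 3.97 in control, and its averaged difference of -0.22 ± 0.08 did not pass (edgeR adjusted p = 0.117). In the list of 18 B cell genes that holds these, 10 were called lower and 0 higher, where 5.13% of all genes were called lower, among them the low-affinity IgE receptor Fcer2a (-0.74 ± 0.14) and the transcription factors Ebf1 and Foxo1. For busulfan plus AOS against busulfan, where Prdm1 rose, edgeR called 0 of the 18 and limma called 0, with 5 higher and 1 lower at an unadjusted p under 0.05 (10.7% and 10.5% of all genes) and 3 called higher by DESeq2 (3.78% of all genes with an adjusted p). Pax5 differed by 0.31 ± 0.12 there (edgeR adjusted p = 0.179).

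The ligands of Tnfrsf17 and its sister receptor were measured too. Tnfsf13b (BAFF) averaged 8.08 ± 0.638 CPM with busulfan plus AOS, 10.6 ± 3.29 with busulfan, 9.77 ± 1.47 with AOS and 9.81 ± 0.408 in control (SD, n = 3 each). Tnfsf13 (APRIL) averaged 7.81 ± 0.169 CPM with busulfan plus AOS, 9.13 ± 2.91 with busulfan, 7.75 ± 1.47 with AOS and 8.43 ± 0.574 in control. Neither passed any test, with log2 differences of -0.39 to 0.12. Tnfrsf13b (TACI) averaged 133.5 ± 13.8 CPM with busulfan plus AOS, 102 ± 8.997 with busulfan, 146.5 ± 11.9 with AOS and 146.0 ± 16.8 in control. It fell by 0.33 ± 0.08 with busulfan averaged over AOS (edgeR adjusted p = 0.0327). Of the 10 survival genes tested, the BAFF receptor Tnfrsf13c and the anti-apoptotic gene Mcl1 were called lower in that comparison as well, by 0.54 ± 0.11 and 0.23 ± 0.05 (edgeR adjusted p = 0.0238 and 0.0310). The cytokine Il21 was called higher, by 0.80 ± 0.17 (edgeR adjusted p = 0.0256), at 1.58 to 3.54 CPM in the group means. Thus 3 of 10 were called lower and 1 higher, where 5.13% of all genes were called lower and 3.10% higher. In the fits without 1 library, these calls stood in 4 of 12 fits for Tnfrsf13b, 8 of 12 for Tnfrsf13c, 4 of 12 for Mcl1 and 7 of 12 for Il21. With busulfan plus AOS relative to AOS, 2 of 10 were called lower, where 3.45% of all genes were. They were Tnfrsf13c (edgeR adjusted p = 0.0156, kept in 10 of 12 fits) and Mcl1 (0.0330, kept in 4 of 12).

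**Figure D4:**
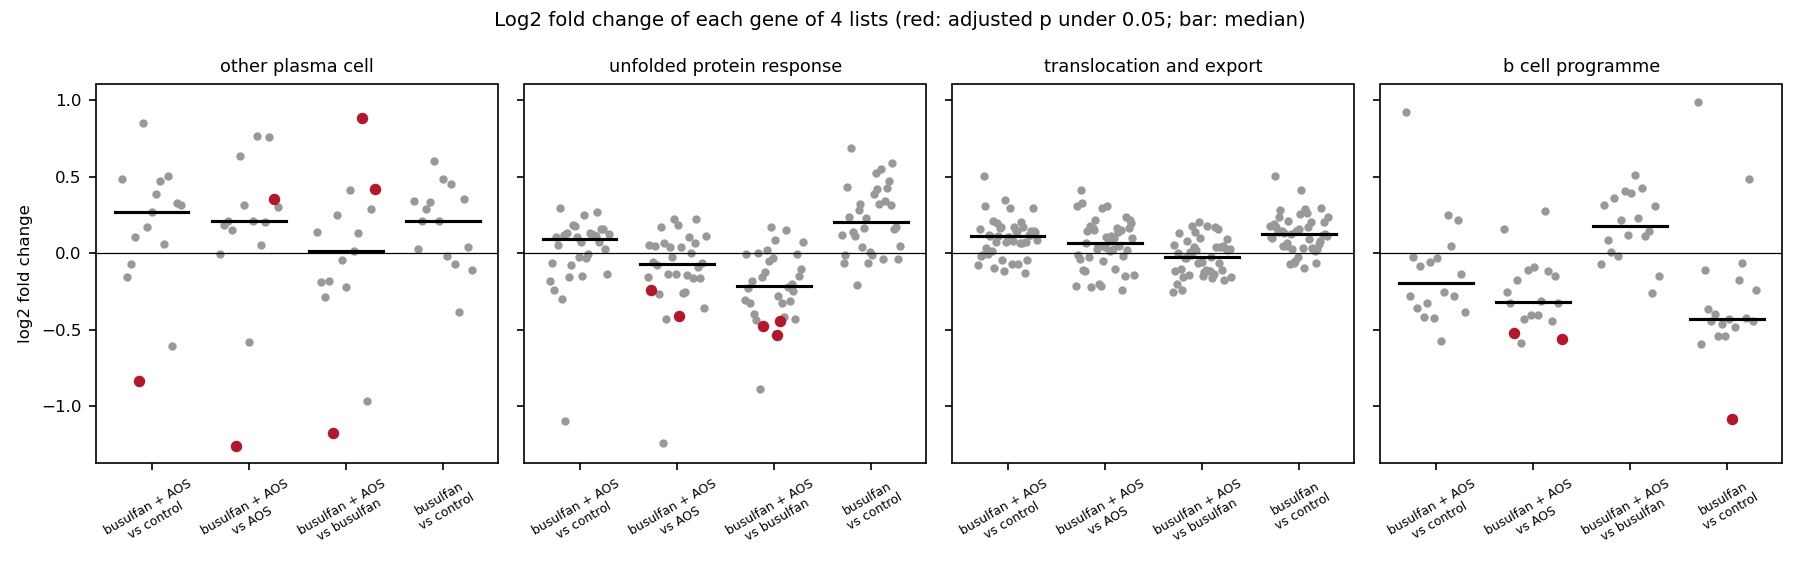
log2 fold change (y axis) of every gene tested in 4 lists, 1 panel per list (other plasma cell genes, unfolded protein response, ER translocation and export, B cell programme), with the comparisons along the x axis. Red points are genes called by edgeR at an adjusted p under 0.05, grey points are the rest and bars mark medians. In busulfan plus AOS against busulfan the unfolded protein response list has a median of -0.21 and its 3 called genes lie below 0.

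Markers of other cell types that express some of these genes were summed as well. Natural killer and cytotoxic markers, 10 genes, summed to 74.6 to 85.2 CPM with busulfan plus AOS, 67.8 to 96.5 with busulfan, 120.4 to 204 with AOS and 104 to 177 in control. Averaged over AOS, busulfan had 8 of these 10 called lower by edgeR, where 5.13% of all genes were. Macrophage markers, 12 genes, summed to 1571 to 2217 CPM with busulfan plus AOS, 1807 to 2069 with busulfan, 1297 to 2159 with AOS and 1373 to 1669 in control. With busulfan plus AOS, 12 of 12 had a log2 difference above 0 relative to control and to AOS (medians 0.41 and 0.22). Only Cd5l was called higher there by edgeR, where 0.259% and 2.36% of all genes were. Relative to busulfan 7 of 12 were above 0, with a median of 0.12, and 0 were called. T cell markers, 11 genes measured, summed to 430.1 to 565 CPM with busulfan plus AOS, 358 to 575 with busulfan, 571 to 738 with AOS and 414 to 627 in control. For the busulfan-plus-AOS and busulfan libraries these ranges overlapped in all 3 lists, and their part in the values of Prdm1 was not tested.

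Across the 12 libraries, the genes whose log2 CPM was most like that of each member were listed among 11679 genes with a mean of at least 5 CPM, as a description without a test, since all libraries share the same design. Prdm1 was most like Nr1d1, a nuclear receptor of the circadian clock (Pearson r = 0.95), and the helicase gene Ddx59 (0.95). Zbtb32 was most like Gm41885 and Wsb1 (0.92 and 0.91), Irf4 was most like Rapgef1 and Rasgrp3 (0.97 and 0.94), and Sdc1 was most like Memo1 and Serinc5 (0.88 and 0.87). Gm41885 averaged 50.4 ± 53.1 CPM with busulfan plus AOS, 0.340 with busulfan, 0.636 with AOS and 0.447 in control. It met the minimum of 5 CPM only through the busulfan-plus-AOS group, where Zbtb32 was highest too. Derl3 was most like Emc3, a subunit of the ER membrane protein complex (0.92), and Xbp1 was most like Sec61a1, the pore of the ER translocon, and Shq1 (both 0.90). Mzb1 was most like a row with no gene name (0.87), which was also second for Derl3 (0.92), and then Thbs4 (0.86). Tnfrsf17 reached 0.80 with Dnajc15 and Mrpl32, the lowest of the 8.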

How the data were processed

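Total RNA of mouse spleen was sequenced in 12 libraries of 4 groups of 3. The authors deposited expected counts per gene, under headers that call them read counts, of which 75.7% are whole, and a normalised value read here as FPKM from its ratio to the counts (within 0.390% over 1227 genes with at least 2000 counts). Per the submitters' processing notes the genome was mm10. No aligner, counting program or strandedness is given in the sources used here. Rounded counts were tested with edgeR 4.0.16 in R 4.3.3 (TMM, filterByExpr, quasi-likelihood, all 12 libraries, 1 mean per group), adjusted over 15079 genes and called at an adjusted p under 0.05; the method was checked on simulated data. CPM used TMM-scaled totals. The 8 columns of the authors' averages were not used. Alternatives used DESeq2 1.42.0, limma 3.58.1, other filters, a replicate block, 2 covariates and libraries left out. Members, lists and the rule for named genes (called list members, up to 4 per list and comparison, and 10 fixed partners) were chosen with earlier results of these data known. One gene that the rule names is not reported here.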

Additional observations from a re-analysis of the deposited data

Results flagged for a closer look

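Of 41 named genes looked at, 2 (Cxcr4 and Herpud1) passed the test of a different busulfan effect with and without AOS, and in Hspa5 the libraries moved in opposite directions. The 41 took in list genes already called in some comparison of these data, the interaction included. Their count of 2 was thus partly set by that choice. Over the whole table edgeR called 73 of 15079 genes for the interaction. Cxcr4 had an interaction of -1.59 on the log2 scale (edgeR adjusted p = 0.0114), and all 3 busulfan-plus-AOS libraries lay below the AOS libraries. Herpud1 had an interaction of -0.798 (edgeR adjusted p = 0.0492). Its call stood in 1 of 12 fits without 1 library and in 3 of 10 other settings, and the edgeR adjusted p was 0.0552 with the replicate block, 0.326 with the acinar covariate and 0.632 with the heat shock covariate. The call of Cxcr4 stood in 12 of 12 fits without 1 library and in 7 of 10 other settings, with an edgeR adjusted p of 0.171 with the heat shock covariate. Over the whole table the interaction had 1 gene called with the acinar covariate and 0 with the heat shock covariate. Hspa5 had an interaction of -0.676 that did not pass (edgeR adjusted p = 0.0744, unadjusted p = 0.000883). Every busulfan library of Hspa5 lay above every control library, while every busulfan-plus-AOS library lay below every AOS library. The first of these held for 11.0% of all genes. How many of all genes show both was not counted, so how unusual the pattern is remains unknown.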

How the results depend on the processing

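The number of the 8 members called moved with the processing, while the directions of the Prdm1 and Zbtb32 differences held in every fit of busulfan plus AOS against the other groups. Leaving out 1 library at a time gave 0 to 2 members for busulfan plus AOS against AOS, 0 to 2 against busulfan, 0 to 2 against control and 1 to 5 for busulfan averaged over AOS, where 5 came without control library 3. Against the 2 called for busulfan plus AOS relative to AOS, 1 was called with no filter on low counts, with only the groups compared and by limma on log2(FPKM + 0.1) and log2(FPKM + 1), and 0 without control 1 and AOS 2 together, with the acinar covariate and with the heat shock covariate. Relative to busulfan the number was 0 with only the groups compared, 1 without that pair of libraries, 1 with the acinar covariate and 0 with the heat shock covariate. Relative to control it was 0 with only the groups compared, 1 by both limma fits, 0 without the pair, 1 with the acinar covariate and 0 with the heat shock covariate. By DESeq2 it was 3 relative to control, with Derl3 (adjusted p = 0.0303), and 3 for busulfan averaged over AOS, with Mzb1 (adjusted p = 0.0474). For busulfan averaged over AOS it was 0 without the pair and 1 with the heat shock covariate. Over the whole table those settings left 9 and 42 genes called, against 1241 in the main fit. Replicate numbers as a block left 1 member called relative to control, since Zbtb32 had an edgeR adjusted p of 0.0508, and changed no other call of a member. Same-numbered libraries deviated together weakly at most (correlations of -0.0747 to 0.273 over 18 pairs). Differently numbered libraries were not correlated for reference, so whether the numbers mark a shared batch or handling was not tested. Over the whole table edgeR called 71 genes for busulfan relative to control, against 10 with the block, 889 by DESeq2 and 18 by limma on log2(FPKM + 1). DESeq2 called 1750 against 876 by edgeR for busulfan plus AOS relative to AOS, 1146 against 456 relative to busulfan, 750 against 132 relative to control, 2352 against 1241 for busulfan averaged over AOS, 77 against 0 for AOS relative to control and 618 against 73 for the interaction. By limma 67.6% of the interaction calls were higher, against 49.3% by edgeR.

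Signs turned in differences that had passed no test, except Dnajb9. With the acinar covariate AOS against control was -0.36 for Derl3 and -0.12 for Irf4, busulfan plus AOS against control was -0.0039 for Irf4, busulfan against control was 0.00097 for Sdc1, and the interaction was 0.031 for Mzb1 and -0.35 for Tnfrsf17. With the heat shock covariate busulfan plus AOS against busulfan was 0.064 for Dnajb9, and the interaction was 0.27 for Mzb1 and 0.22 for Xbp1. By limma on log2(FPKM + 0.1) and log2(FPKM + 1) the interaction was 0.0666 and 0.0662 for Mzb1 and -0.22 and -0.038 for Tnfrsf17, and busulfan against control was -0.0498 and -0.0373 for Zbtb32. Without control 1 and AOS 2 together the interaction of Tnfrsf17 was -0.25. With only the groups compared Xbp1 differed by -0.0016 between busulfan plus AOS and busulfan. Leaving out 1 library, busulfan plus AOS against busulfan ran from -0.013 to 0.28 for Derl3, -0.021 to 0.12 for Mzb1, -0.34 to 0.68 for Tnfrsf17 and -0.0396 to 0.044 for Xbp1. Busulfan plus AOS against AOS ran from -0.026 to 0.054 for Irf4 and -0.25 to 0.78 for Tnfrsf17. Busulfan against control ran from -0.25 to 0.25 for Sdc1 and -0.0078 to 0.88 for Tnfrsf17, and AOS against control from -0.11 to 0.78 for Tnfrsf17. The interaction ran from -0.13 to 0.17 for Derl3, -0.12 to 0.024 for Mzb1 and -0.64 to 0.43 for Tnfrsf17. The cause of these changes was not tested, and Tnfrsf17 had 5 to 42 counts per library.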
